A study of Mus musculus with 5 samples.

Results

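Hepatocytes, the parenchymal cells of the liver, were compared between mice left without food for 8 h and fed mice. Cell barcodes of the 2 libraries were taken as hepatocytes when they held at least 1000 unique molecular identifiers (UMIs, counts of tagged transcript molecules) and at least 500 genes, a mitochondrial share of 2 to 30% of UMIs, and under 2% of UMIs from the hemoglobin genes Hba and Hbb. This left 10542 hepatocytes, 7826 from the fed library and 2716 from the 8 h library, of 20000 barcodes in the 2 libraries and 50000 in the 5 libraries of the series. All mice were male wild-type C57BL/6J animals on a normal chow, and their age and the number of animals behind each library are not given in the sources used here. For 3 days before sampling, every group had been trained to a 16 h overnight fast and 8 h of daytime feeding, and on the day all received chow with 20% sucrose in the water. The fed group was sampled at 13:00 after 4 h of feeding, and the 8 h group at 21:00. Hepatocytes were isolated and 1 single-cell library per time point was made, with the other libraries taken at 4, 16 and 24 h of fasting. With 1 library a side, no test between conditions is possible, the difference has no replicate check, and the intervals below are 95% counting intervals that leave out variation between animals. The time without food and the clock hour differ together between the 2 libraries and cannot be told apart.

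When food is withdrawn, insulin falls and glucagon and glucocorticoids rise, and the liver turns from storing glucose as glycogen and fat to releasing it. Gluconeogenesis rebuilds glucose from lactate, glycerol and the carbon skeletons of amino acids, whose nitrogen leaves through the urea cycle. Fatty acid synthesis, driven by the transcription factor SREBP-1c, is turned down, and fatty acids are oxidised to ketone bodies, many of whose enzymes are targets of the nuclear receptor PPAR alpha.

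The libraries differed in depth. The hepatocytes held a median of 5408 UMIs and 1804 genes per cell in the fed library and 15005 UMIs and 3282.5 genes at 8 h, and their summed non-mitochondrial UMIs were 37789268 and 33821768. At 8 h, 6441 of 10000 barcodes (64.4%) were under 1000 UMIs, against 0 in the fed library. The median mitochondrial share was 11.9% in fed hepatocytes and 9.79% at 8 h. The libraries had 26 barcode sequences in common, 6 of them among hepatocytes. All 7 hepatocyte markers were detected in the summed cells. They came to 112576 CPM (UMIs scaled to a total of 1000000 non-mitochondrial UMIs) in the fed cells and 89219 at 8 h. Such a sum does not test the label of each cell. Without cells that held 2 or more UMIs of another cell type's markers, erythroid list aside, 6981 of 7826 fed and 2473 of 2716 8 h cells remained. Among markers of other cells, the 10 endothelial genes summed to 87.9 and 12.1 CPM, the 10 Kupffer cell and macrophage genes to 43.5 and 0.444 CPM with 6 of them at 0 at 8 h, and the 9 lymphocyte genes to 3.10 and 0.0296 CPM with 8 at 0 at 8 h. The 9 stellate cell and fibroblast genes summed to 24.3 and 15.4 CPM, the 7 cholangiocyte genes to 78.2 and 35.7 CPM, the 6 neutrophil genes to 1.01 and 0.266 CPM, and the 8 erythroid genes to 44.9 and 80.2 CPM. The erythroid sum was nearly all Alas2, at 33.8 and 67.0 CPM, and Bpgm, at 9.34 and 13.2 CPM, while the 4 hemoglobin genes had 68 UMIs in fed hepatocytes and 0 at 8 h and 6 of the 8 genes were at 0 at 8 h. Marker sums of the 6 lists other than the erythroid one were thus lower in the 8 h hepatocytes, and the part of such RNA in the results was not tested except where a value is given.

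Levels are UMIs of a gene summed over the hepatocytes of a library and divided by that library's non-mitochondrial UMIs, in CPM. Of 3019 genes at 50 CPM or more in either library, 240 were at least 2-fold higher at 8 h, 7.95% of the genes, and 357 were at least 2-fold lower, 11.8%. These genes are called higher and lower below, and the 2 percentages are the background for the counts in each gene group. At 4-fold, 44 genes were higher and 84 lower. The median log2 ratio of 8 h to fed over the 3019 genes was -0.04, with 5% of genes below -1.56 and 5% above 1.25. Counting error was small at these levels, since 92.3% of the intervals excluded a ratio of 1, so the fold and not the interval defines the calls. The threshold cuts through a dense range: 42 of the higher and 51 of the lower genes lay within 0.1 log2 units beyond it. The balance of directions depended on scaling. With trimmed-mean (TMM) scaling, which moved the median gene by 0.21 log2 units, 370 genes were higher and 245 lower, so that 60.2% of calls were higher against 40.2% with the total as the denominator. Ratios below are on the total scale. A gene under 50 CPM in one library reached the minimum through the other alone and so had to differ: this was so for 91 of the 240 higher and 197 of the 357 lower genes, and counts that include such genes are descriptions.

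**Figure D1:**
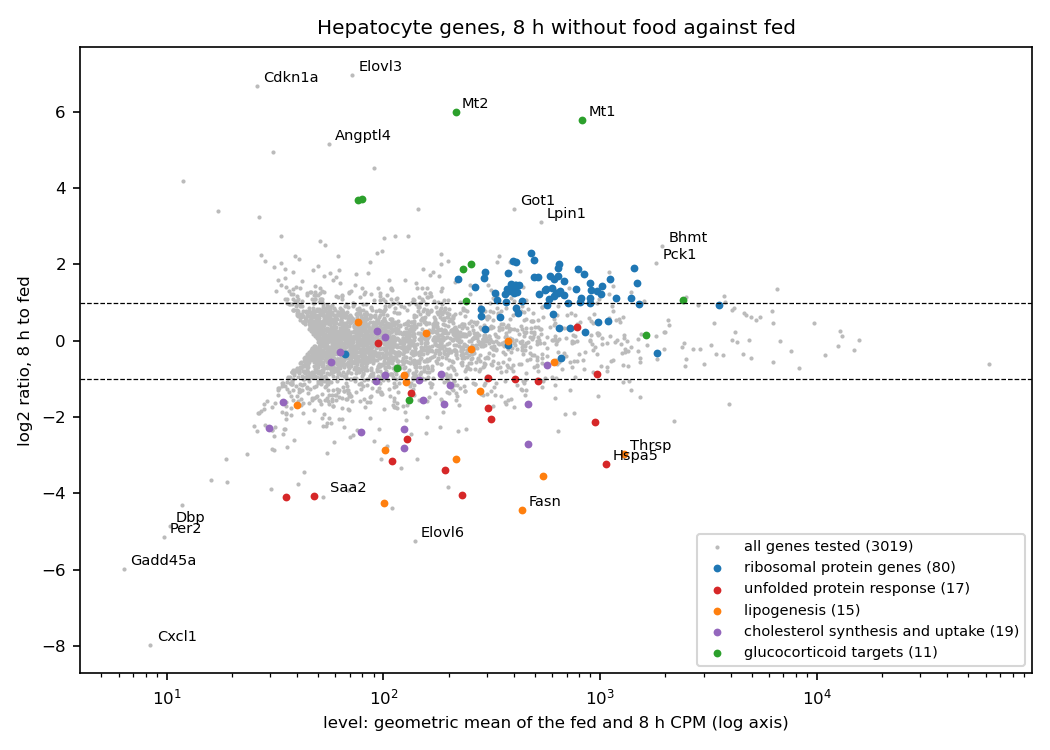
Each point is 1 of 3019 genes, with the geometric mean of its fed and 8 h CPM on a log x axis and the log2 ratio of 8 h to fed on the y axis, and dashed lines mark 2-fold. Ribosomal protein genes lie mostly above the upper line and genes of the unfolded protein response, lipogenesis and cholesterol synthesis mostly below the lower one, while Elovl3 at 6.95 and Cxcl1 at -7.97 are the extremes.

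Of 13 gluconeogenic genes, 3 were called higher at 8 h and 0 lower, with a median of 0.21. Pck1 encodes cytosolic phosphoenolpyruvate carboxykinase, the step that draws oxaloacetate into gluconeogenesis. It was at 899 CPM in fed hepatocytes and 3662 CPM at 8 h, a log2 ratio of 2.03 (2.01 to 2.04). Got1, the cytosolic aspartate aminotransferase, was at 121 and 1331 CPM (3.46, 3.41 to 3.50). Sds, which deaminates serine to pyruvate, was at 127 and 509 CPM, 4.01-fold higher. These were the 3 called, and the other 10 lay within 2-fold. G6pc, the catalytic subunit of glucose-6-phosphatase that releases free glucose, was at 398 CPM fed and 729 CPM at 8 h (0.87, 0.84 to 0.90), below the 2-fold threshold. Pcx, the pyruvate carboxylase, was at 243 and 280 CPM (0.21), and Fbp1, fructose-1,6-bisphosphatase, at 1098 and 652 CPM (-0.75). Thus 1 enzyme of the pathway was 4.07-fold higher while another lay at a ratio below 1. Ppargc1a, a coactivator of gluconeogenic genes, was under the 50 CPM minimum at 24.0 and 35.4 CPM (0.56, 0.43 to 0.69). By depth of cell the list summed to between 3567 and 4891 CPM in fed cells of the 3 bins below 15000 UMIs and to between 8903 and 11016 CPM in the 4 bins of 8 h cells. In barcodes of under 1% mitochondrial UMIs, which are not among the hepatocytes, 3 members were higher and 3 lower, with a median of -0.56.

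Of 23 amino acid catabolism genes at the minimum, 6 were called higher, 0 were lower and 17 were not called, with a median of 0.55. Prodh, the first enzyme of proline oxidation, was at 72.3 CPM fed and 218 CPM at 8 h (1.59). Tdo2 and Tat open the breakdown of tryptophan and tyrosine. Tdo2 was at 1669.7 and 3725 CPM (1.16), and Tat at 1657 and 3498 CPM (1.08). The others called were Sdsl at 1.47, Agxt at 1.09 and Glud1, the glutamate dehydrogenase, while the lowest member was Haao at -0.57. Of the 8 urea cycle genes, Ass1, argininosuccinate synthase, was at 2485 and 5620 CPM (1.18, 1.17 to 1.19) and Slc25a15, the mitochondrial ornithine carrier, at 217 and 471 CPM (1.12). The 6 others were not called, and Otc, ornithine transcarbamylase, was at 626 and 389 CPM (-0.69). In methionine and one-carbon metabolism 2 of 12 genes were higher and 0 lower. Bhmt remethylates homocysteine with betaine and was at 813 CPM fed and 4566 CPM at 8 h (2.49, 2.47 to 2.51). Cbs, which commits homocysteine to cysteine, was at 183 and 505 CPM (1.46). In barcodes of under 1% mitochondrial UMIs, which are not among the hepatocytes, Bhmt had a ratio of 0.75 and no member of the amino acid, urea cycle or methionine lists was called higher.

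Genes of glucose use and storage were lower or not called, with 1 exception. Of 14 genes of glucose uptake and glycolysis, 5 were lower and 0 higher (median -0.35). Slc2a2, the GLUT2 transporter, was at 646 CPM fed and 219 CPM at 8 h (-1.56, -1.60 to -1.52). Pklr, liver pyruvate kinase, was at 213 and 88.5 CPM (-1.27), and Gpi1, which interconverts glucose and fructose 6-phosphates, was also lower at -1.18. Ldha had the highest ratio of the list, 0.79. Pdhb, a subunit of the E1 enzyme of pyruvate dehydrogenase, was at 319 and 79.3 CPM (-2.01), the only call among 7 genes of that complex and its regulators, whose inhibitory kinase gene Pdk2 was at 39.3 and 66.1 CPM (0.75). Of 7 glycogen genes, 3 were lower: Ugp2, which makes UDP-glucose, at -1.67, Gbe1, the branching enzyme, at -1.35, and Ppp1r3b, a glycogen-targeting phosphatase subunit, at -1.27. Ppp1r3c, another such targeting subunit, went the other way, from 39.7 CPM fed to 255 CPM at 8 h (2.68, 2.60 to 2.76). The synthase Gys2 (-0.76) and the phosphorylase Pygl (-0.68) were not called.

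Of 15 lipogenesis genes at the minimum, of 18 listed, 9 were called lower, 0 higher and 6 neither, with a median of -1.33. Srebf1, the gene of SREBP-1, was at 438 CPM in fed hepatocytes and 22.9 CPM at 8 h (-4.26, -4.36 to -4.15). Fasn, fatty acid synthase, was at 2021 and 93.8 CPM (-4.43, -4.48 to -4.38), a 21.6-fold difference. Acly, which supplies cytosolic acetyl-CoA, was at 1860.0 and 161 CPM (-3.53), and Acaca, acetyl-CoA carboxylase 1, at 275 and 37.6 CPM (-2.87). Acacb, the carboxylase isoform that makes malonyl-CoA at mitochondria and restrains fatty acid entry, was at 64.2 and 91.1 CPM (0.50, 0.43 to 0.58). Gpam, which starts triglyceride assembly, was at 632 and 74.1 CPM (-3.09), and Thrsp, a regulator of lipogenesis, at 3592 and 458 CPM (-2.97). Mid1ip1, which promotes acetyl-CoA carboxylase activity, was at 270 and 19.4 CPM (-3.80). Pgd and Me1, whose enzymes supply NADPH for lipogenesis, and Tkt, of the pentose phosphate pathway, had ratios of -1.69, -1.33 and -1.08. By depth of cell the list summed to between 8760 and 11858 CPM in fed cells binned below 15000 UMIs, and to between 2542 and 2757 CPM in the bins of 8 h cells. Only 2 fed cells lay above 15000 UMIs, against 1359 at 8 h, and the part of depth was not tested.

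The fatty acid elongases split. Elovl6, which lengthens palmitate to stearate, was at 863 CPM in fed hepatocytes and 22.6 CPM at 8 h (-5.26, -5.36 to -5.15). Elovl3, which acts on longer saturated and monounsaturated acyl chains, was at 6.46 CPM fed and 798 CPM at 8 h (6.95, 6.77 to 7.14), the largest positive ratio of the 3019 genes, on chromosome 19 at 46131897 to 46135694 (mm10, plus strand). Elovl3 was at 234 CPM at 4 h, 61.4 CPM at 16 h and 14.96 CPM at 24 h of fasting, so its level was highest in the 8 h library. Of the 10 elongase and desaturase genes, the only other call was Tecr, at -1.01. 

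Of 19 genes of cholesterol synthesis and uptake, 12 were called lower and 0 higher (median -1.15). Insig1, which retains the sterol-sensing complex in the endoplasmic reticulum, was at 1177 CPM fed and 182 CPM at 8 h (-2.69). Sqle, the squalene epoxidase, was at 181 and 34.5 CPM (-2.39), and Sc5d, Idi1, Lss, Msmo1, Hmgcs1, Fdft1 and Cyp51 lay between -1.66 and -1.02. The highest member, Pmvk, was at 0.26.

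Fatty acid oxidation and ketone body synthesis had no called gene. Among 20 members the lowest ratio was -0.50, for Bdh1, and the median was 0.20. Cpt1a, the carnitine palmitoyltransferase that admits long chains to mitochondria, was at 129 CPM fed and 237 CPM at 8 h (0.88, 0.83 to 0.93). It was higher in the later libraries, with 315 CPM at 16 h and 440 CPM at 24 h. TMM scaling called 3 of the 20 higher, and the barcodes of under 1% mitochondrial UMIs had 8 of them lower. Among PPAR alpha targets outside oxidation, Angptl4, a secreted inhibitor of lipoprotein lipase, was at 9.34 CPM fed and 333 CPM at 8 h (5.16, 5.004 to 5.31). Acot1, an acyl-CoA thioesterase, was at 2.78 and 50.6 CPM (4.19, 3.90 to 4.48), and Pex11a, a peroxisome division factor, at 33.9 and 108 CPM (1.68). These were the 3 called higher of 10 such genes at the minimum, of 19 listed, with 0 called lower and Fabp1 the lowest at -0.45. All 3 reached the minimum only at 8 h, and with a minimum of 10 CPM 3 were higher and 2 lower, with a median of 0.23. Fgf21, a fasting hormone and PPAR alpha target, was below the minimum at 6.27 and 2.99 CPM (-1.07, -1.42 to -0.73), and at 18.7 CPM at 16 h.

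Of 9 lipid droplet genes at the minimum 3 were called higher and 0 lower, Pnpla2 and Plin5 among them reaching the minimum only at 8 h. Pnpla2, the triglyceride lipase ATGL, was at 28.6 CPM fed and 133 CPM at 8 h (2.22). Plin5, which couples droplets to mitochondria, was at 42.0 and 208 CPM (2.31), and Lpin2, a phosphatidate phosphatase, at 83.6 and 404 CPM (2.27). Its relative Lpin1, which also acts as a coactivator with PPAR alpha, was at 181 and 1568 CPM (3.12, 3.08 to 3.16). G0s2, an inhibitor of Pnpla2, was at -0.92. In barcodes of under 1% mitochondrial UMIs 3 genes of the list were higher and 5 lower.

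**Figure D2:**
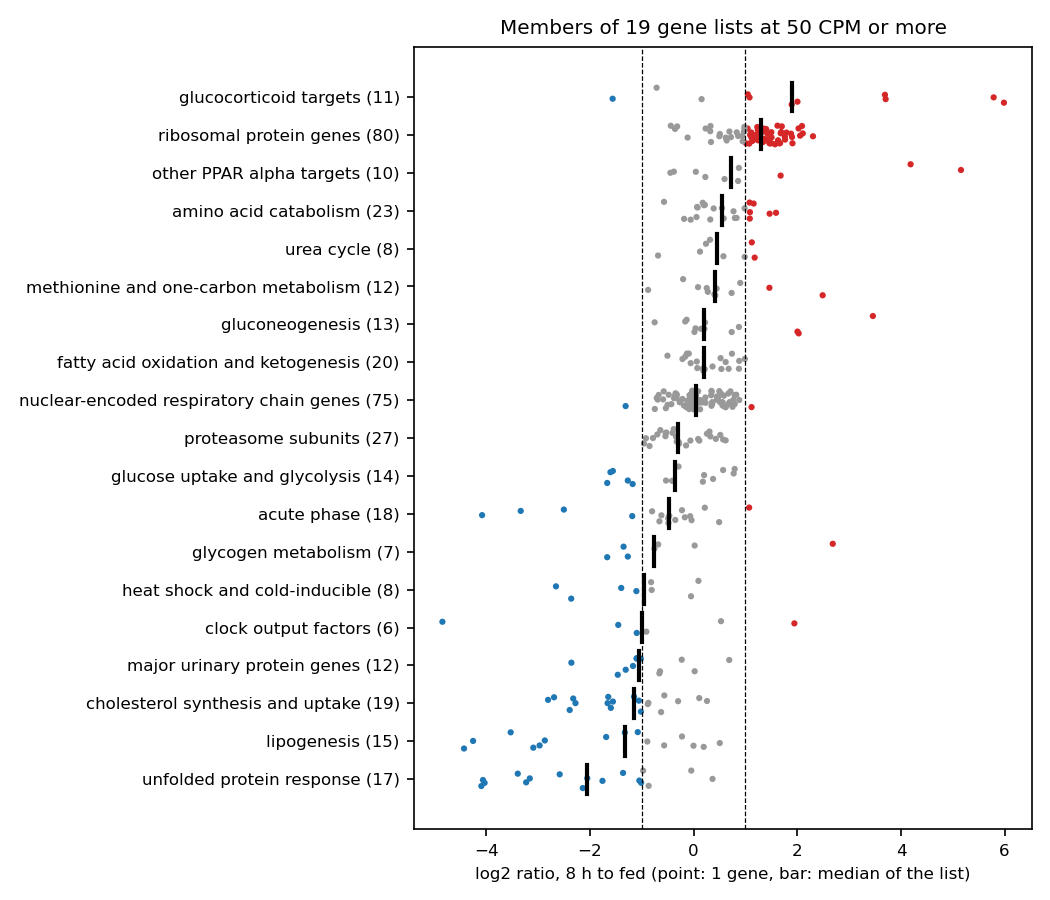
The log2 ratio of 8 h to fed is on the x axis for the members of 19 gene lists at 50 CPM or more (number of such members in parentheses), with points in red when at least 2-fold higher, blue when at least 2-fold lower and grey otherwise, and a black bar at the list's median. The medians of glucocorticoid targets and ribosomal protein genes are 1.89 and 1.29 and that of the unfolded protein response is -2.05, the first over members of which 3 reached the minimum only at 8 h. Fatty acid oxidation has only grey points. The small median of the respiratory chain genes, 0.05, changed sign when cells were weighted equally and was -0.39 in barcodes of under 1% mitochondrial UMIs.

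Of 11 genes known as glucocorticoid targets that reached the minimum, 8 were called higher and 1 lower, with a median of 1.89. Fkbp5, Igfbp1 and Mt2 reached the minimum only at 8 h, so the minimum partly sets this count and median. Fkbp5, a chaperone of the glucocorticoid receptor complex, was at 22.1 CPM fed and 288 CPM at 8 h (3.70, 3.60 to 3.81). Klf9, a transcription factor, was at 121 and 449 CPM (1.89), and Tsc22d3, the leucine zipper GILZ, at 167 and 346 CPM (1.04). The other members called higher were Mt1, Mt2, Igfbp1, Sds and Tat, of which Sds and Tat also stand in the lists above, and Dusp1, a phosphatase gene also sensitive to tissue handling, was at 227 and 76.7 CPM (-1.56). Igfbp1, a secreted binder of insulin-like growth factors that insulin represses, was at 21.4 and 276 CPM (3.69, 3.59 to 3.80). In barcodes of under 1% mitochondrial UMIs 4 members were higher.

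The 2 metallothionein genes, which encode small cysteine-rich proteins that bind zinc and copper, had some of the largest ratios. Mt1 (chromosome 8, 94179082 to 94180327, mm10, plus strand) was at 111 CPM in fed hepatocytes and 6149 CPM at 8 h, a log2 ratio of 5.79 (5.74 to 5.83). Mt2 (chromosome 8, 94172664 to 94173568, plus strand) was at 27.1 and 1716 CPM (5.99, 5.90 to 6.08). In both cases the 4 h library was already high, with 5308 CPM of Mt1 and 1839 CPM of Mt2. By depth of cell, the metallothionein and zinc transporter list summed to 4398, 4627, 6633 and 9028 CPM from the shallowest to the deepest of the 4 bins of 8 h cells, against 554 to 575 CPM in fed cells of the 3 bins below 15000 UMIs. The 8 h sum was thus higher in deeper cells, and the part of depth was not tested. The 4 zinc transporter genes at the minimum were not called. Metallothionein promoters carry metal response elements, short sites read by the zinc sensor MTF1. The promoter windows of RefSeq (GRCm38.p6), which run from 250 bases before to 50 after the table's start, are given for both genes because their levels moved together, in lower case with each match to the core TGCNCNC on either strand in capitals.
Mt1 (chr8:94178839-94179138, plus strand): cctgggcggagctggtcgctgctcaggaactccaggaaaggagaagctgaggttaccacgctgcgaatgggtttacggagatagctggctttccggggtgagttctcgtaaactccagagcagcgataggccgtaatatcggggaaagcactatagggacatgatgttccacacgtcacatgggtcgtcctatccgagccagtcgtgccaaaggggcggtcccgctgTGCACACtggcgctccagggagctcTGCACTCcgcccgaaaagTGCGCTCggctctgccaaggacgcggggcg
Mt2 (chr8:94172368-94172667, plus strand): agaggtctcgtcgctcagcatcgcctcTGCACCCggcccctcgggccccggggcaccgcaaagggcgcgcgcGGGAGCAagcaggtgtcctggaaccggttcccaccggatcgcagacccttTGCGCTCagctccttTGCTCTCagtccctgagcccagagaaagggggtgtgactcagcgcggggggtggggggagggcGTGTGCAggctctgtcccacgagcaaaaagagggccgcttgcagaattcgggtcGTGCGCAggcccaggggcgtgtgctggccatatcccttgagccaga
The Mt1 window had 3 matches and the Mt2 window 6. Any match is common, present in 53.6% of the 27025 genes with a promoter in the table and in 61.2% of the 2424 tested genes with one, but 8.04% of genes had at least 3 matches and 0.263% at least 6. A match is a description of letters and not a site of binding. The annotated Mt2 gene in GENCODE starts near the downstream end of this window.

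Of 14 growth arrest genes 5 reached the minimum, of which 2 were called higher, Cdkn1a and Ddit4, and 1 lower, Gadd45a. Cdkn1a and Ddit4 reached the minimum only at 8 h and Gadd45a only in the fed library, so the minimum partly sets this count, and under TMM scaling 2 were higher and 0 lower. Cdkn1a, the cell cycle inhibitor p21 (chromosome 17, 29090976 to 29100727, mm10, plus strand), was at 2.59 CPM fed and 264 CPM at 8 h (6.67, 6.38 to 6.97), from 98 and 8938 UMIs. The level was 79.2 CPM at 4 h but 1.73 CPM at 16 h and 7.34 CPM at 24 h, so the high value belonged to the earlier part of the series. Ddit4, an inhibitor of mTORC1 signalling, was at 5.29 and 56.1 CPM (3.41, 3.20 to 3.62). Gadd45a, another growth arrest gene, went the opposite way, from 50.3 CPM fed to 0.798 CPM at 8 h (-5.98, -6.58 to -5.43), the last from 27 UMIs. Outside that list, Eif4ebp3, a repressor of cap-dependent translation, was at 43.5 and 475 CPM (3.45, 3.37 to 3.52). Retreg1, a receptor for autophagy of the endoplasmic reticulum, was at 50.01 and 338 CPM (2.76). Of 18 autophagy and lysosome genes, Gabarapl1 at 1.54 and Map1lc3b at 1.04, both of the ATG8 family, were higher and 0 were lower. The higher share was 11.1%, near the 7.95% background. In barcodes of under 1% mitochondrial UMIs 0 of this list were higher and 1 lower. Of the remaining genes with the 20 highest ratios, Nlrp12, a sensor of the NLR family, was at 5.56 and 171 CPM (4.95), Rnf125, a ubiquitin ligase, at 13.0 and 87.3 CPM (2.75), and Fbxo31, a ubiquitin ligase subunit, at 20.5 and 125 CPM (2.61). Sco2, a copper chaperone of cytochrome c oxidase, was at 22.7 and 128 CPM (2.50), and Gstp1, a glutathione transferase with close paralogs whose reads may be split, at 44.1 and 293 CPM (2.73). The Gstp1 ratio was 1.81 with cells thinned to 1000 UMIs and 8.73 with 10% free RNA subtracted, and in barcodes of under 1% mitochondrial UMIs the gene was at 439 and 1836 CPM.

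Signalling and regulatory genes were called in both directions. Foxo1, the insulin-restrained transcription factor, was at 29.6 CPM fed and 96.0 CPM at 8 h (1.70), and Pik3r1, a regulatory subunit of the insulin-activated kinase, at 223 and 67.7 CPM (-1.72). The growth hormone feedback genes diverged, with Socs2 at 12.5 and 59.6 CPM (2.26) and Cish at 61.3 and 13.2 CPM (-2.21). Among 8 fasting regulators Lpin1, Klf15 (1.08) and Hnf4a (1.04) were higher and Foxa2 (-1.71) lower, but 1 was higher in cells of 5000 to 15000 UMIs and 1 in barcodes of under 1% mitochondrial UMIs. Of the secreted regulators, Angptl8, an insulin-induced regulator of lipoprotein lipase, was at 499 and 23.9 CPM (-4.38, -4.49 to -4.28), opposite to Angptl4. Inhba and Inhbc, activin subunits, were at -3.87 and -1.47, and Igfbp2 at 1.08. Foxq1, a forkhead factor, was at 268 and 17.7 CPM (-3.92), Phlda1, an early response gene, at 749 and 52.6 CPM (-3.83), and Arrdc3, an arrestin-domain gene, at 148 and 10.9 CPM (-3.76). Rnd3, a small GTPase gene, was at -3.69 and Nrep at -4.30.

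Genes of the folding machinery of the endoplasmic reticulum had a median of -2.05. These chaperones and oxidoreductases fold secreted proteins, and their genes are induced together when unfolded proteins build up. Of 17 genes at the minimum, of 20 listed, 13 were called lower and 0 higher. Hspa5, the chaperone BiP, was at 3266 CPM in fed hepatocytes and 348 CPM at 8 h (-3.23, -3.26 to -3.20). Hsp90b1, the chaperone GRP94, was at 1994 and 453 CPM (-2.14), and Pdia4, a disulfide isomerase, at 937 and 57.2 CPM (-4.03). Sdf2l1 (-4.10), Creld2 (-4.06), Manf (-3.39) and Hyou1 (-3.16) were also lower, as was Xbp1, a transcription factor of the response, at 556 and 164 CPM (-1.76). Herpud1, of the degradation branch, was the highest member at 689 and 887 CPM (0.36). The summed level was 13076 CPM fed, 5416 CPM at 4 h, 3997 CPM at 8 h, 5350.0 CPM at 16 h and 3492 CPM at 24 h, so that the fed library stood above all 4 fasted ones. By depth of cell it lay between 3982 and 4036 CPM in 8 h cells of each of 4 depth bins, and between 11032 and 14584 CPM in fed cells of the 3 bins below 15000 UMIs, and the part of depth was not tested.

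The endoplasmic reticulum stress element is CCAAT followed, after 9 bases of any kind, by CCACG, and is read by ATF6 with NF-Y. It was searched on both strands of the RefSeq promoter windows. It was present in 7 of the 15 genes of this list that had a promoter (46.7%), in 6 of 283 lower genes (2.12%), in 0 of 197 higher genes, in 10 of 2424 tested genes (0.413%) and in 37 of all 27025 (0.137%). The 7 were Hspa5, Hsp90b1, Calr, Canx, Pdia6, Creld2 and Dnajc3, of which Calr (-0.87) and Pdia6 (-0.97) were not called. Hspa5, Hsp90b1, Canx, Creld2 and Dnajc3 are among the 6 lower genes, and all 7 are among the 10 tested ones. The shares thus overlap and are not separate results. This motif was added after the data had been seen, and the windows of Hspa5 and Creld2, 2 of the members with lower levels, are given with the element in capitals. In Creld2 it reads on the opposite strand.
Hspa5 (chr2:34771840-34772139, plus strand): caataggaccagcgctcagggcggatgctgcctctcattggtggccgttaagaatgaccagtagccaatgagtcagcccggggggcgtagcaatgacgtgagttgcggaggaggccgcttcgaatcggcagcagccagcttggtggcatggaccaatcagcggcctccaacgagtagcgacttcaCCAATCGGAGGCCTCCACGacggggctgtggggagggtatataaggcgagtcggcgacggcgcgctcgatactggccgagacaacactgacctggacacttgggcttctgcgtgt
Creld2 (chr15:88819396-88819695, plus strand): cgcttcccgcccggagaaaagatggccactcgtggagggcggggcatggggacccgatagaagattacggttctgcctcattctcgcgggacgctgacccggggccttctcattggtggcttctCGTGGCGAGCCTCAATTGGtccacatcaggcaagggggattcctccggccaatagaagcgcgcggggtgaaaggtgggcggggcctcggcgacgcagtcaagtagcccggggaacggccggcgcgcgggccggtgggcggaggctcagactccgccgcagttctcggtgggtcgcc
The metal response element was in 60.4% of higher and 59.4% of lower promoters. The direct repeat 1 element, searched as an exact pair of half-sites, was in 0 of 197 higher, 0 of 283 lower and 0 of 2424 tested promoters. The E-box CACGTG was in 12.7% of higher, 13.1% of lower and 12.6% of tested promoters. The cyclic AMP response element TGACGTCA was in 5.08% of higher, 2.12% of lower and 3.42% of tested promoters, and the sterol response element TCACNCCAC in 0.508%, 2.83% and 1.57%. The D-box TTATGTAA was in 0% of higher, 2.12% of lower and 1.24% of tested promoters, and the forkhead element TGTTTAC in 3.55%, 2.12% and 3.59%. None of these shares was tested.

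Of 8 heat shock and cold-inducible genes at the minimum 4 were lower and 0 higher. The cytosolic chaperone genes Hsph1 and Hsp90aa1 were at 148 and 23.5 CPM (-2.66) and at 501 and 97.4 CPM (-2.36), the cochaperone gene Dnaja1 was at -1.40, and Hspe1, of the mitochondrial chaperonin, at -1.10. Hspd1, the partner of Hspe1, had the highest ratio, 0.09. Proteasome subunits had no call among 27, with a median of -0.31. In barcodes of under 1% mitochondrial UMIs 17 proteasome genes were lower, with a median of -1.05, and 8 heat shock and cold-inducible genes were lower. Markers of the stress of cell isolation were mostly below the minimum: 4 of 13 reached it, of which Junb (-2.25) and Dusp1 were lower and 0 higher. Their part in the lower chaperone and early response genes was not tested.

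Of 80 ribosomal protein genes at the minimum, 59 were called higher, 73.8% against the 7.95% background, and 0 lower, while 21 were not called, with a median of 1.29. Rpl10 had the highest ratio, at 216 CPM fed and 1067 CPM at 8 h (2.30), and Rps27l the lowest, at 772 and 568 CPM (-0.44). Summed over the family the level was 36513 CPM in the fed library, 89036 CPM at 4 h, 81754 CPM at 8 h, 41917 CPM at 16 h and 68744 CPM at 24 h. The fed and 16 h libraries had the lowest sums. Their median depths per hepatocyte were 5408 and 4391 UMIs, against 12097 at 4 h, 15005 at 8 h and 8979 at 24 h. Within the fed library the sum was 57312 CPM in cells of under 3000 UMIs, 23358 CPM at 3000 to 5000 and 36548 CPM at 5000 to 15000. At 8 h the same bins held 75081, 65985 and 75704 CPM, and cells of over 15000 UMIs 84435 CPM. The part of depth was not tested. In cells of 5000 to 15000 UMIs in both libraries, 55 genes of the family were called higher, and in barcodes of under 1% mitochondrial UMIs 24. Of 75 nuclear-encoded respiratory chain genes 1 was called higher (Atp5g2, 1.12) and 1 lower (Cox7b, -1.31). These counts moved with the processing: 5 were higher under TMM scaling and 10 were higher with 10% free RNA subtracted. In barcodes of under 1% mitochondrial UMIs 12 were lower, and the median was -0.39 against 0.05 in the hepatocytes.

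Several clock genes differed widely between these libraries, which also differ in clock hour. Per2, a repressor of the clock, was at 57.7 CPM in fed hepatocytes at 13:00 and 1.63 CPM in 8 h hepatocytes at 21:00 (-5.15, -5.56 to -4.76). Dbp, a clock-driven transcription factor, was at 55.3 and 1.92 CPM (-4.85, -5.23 to -4.49). In the 24 h library, sampled at the same hour as the fed one, Dbp was at 62.9 CPM and Per2 at 17.9 CPM. The other output factors Tef and Hlf were at -1.45 and -1.10, and in the 24 h library they were at 128 and 153 CPM against 116 and 164 CPM fed. Nfil3, a repressor that binds the sites of Dbp, was at 15.9 and 61.2 CPM (1.94). Of the core clock, Nr1d2 (-1.89) and Bhlhe40 (-2.42) were lower and Clock (1.08) higher, a call lost in cells of 5000 to 15000 UMIs. Of the core clock 1 gene was lower and 0 higher in barcodes of under 1% mitochondrial UMIs. Arntl, the partner of Clock, was under the minimum at 5.504 and 30.5 CPM (2.47).

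Genes of inflammation were called in both directions. Cxcl1, a neutrophil-attracting chemokine (chromosome 5, 90891241 to 90893115, mm10, plus strand), had the lowest ratio of the 3019 genes, with 133 CPM fed and 0.532 CPM at 8 h (-7.97, -8.72 to -7.31), from 5034 and 18 UMIs. It was at 8.90 CPM at 4 h, 16.0 CPM at 16 h and 9.79 CPM at 24 h, so the fed library was above and the 8 h library below the 3 others. Without cells that held 2 or more UMIs of another cell type's markers the ratio was -7.44. Serum amyloid genes, near-identical acute phase genes whose reads may be split, were lower as well, with Saa1 at 382 and 37.9 CPM (-3.34) and Saa2 at 217 and 12.8 CPM (-4.08). Their levels varied widely between the fasted libraries, with Saa1 at 1148 CPM at 4 h, 4880.2 CPM at 16 h and 21.1 CPM at 24 h, which is no steady course. Of 18 acute phase genes 4 were lower, these and Orm2 (-2.50) and Apcs (-1.18), and Lbp was higher (1.07). The receptor genes Il6ra (1.75) and Il1r1 (1.26) and the inhibitor gene Nfkbia (1.22) were higher, and Cxcl12 was lower (-1.06). None of the chemokine and cytokine list was higher in barcodes of under 1% mitochondrial UMIs. Tmsb4x, a thymosin gene abundant in blood and endothelial cells, was at 57.0 and 4.52 CPM (-3.66), beside the lower endothelial and macrophage marker sums given above, and had a ratio of 3.01 in barcodes of under 1% mitochondrial UMIs and -9.38 with 10% free RNA subtracted.

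In bile acid synthesis and transport 3 of 14 were higher and 0 lower: Cyp27a1 (1.29) and Cyp8b1 (1.14), which hydroxylate sterols, and the export pump Abcb11 (1.004), the last at the threshold. In barcodes of under 1% mitochondrial UMIs 0 of this list were higher and 1 was lower, with a median of -0.26. Of 23 drug-metabolising Cyp and related genes at the minimum 1 was called higher and 2 lower, the latter 8.70% of the list against the 11.8% background. The higher one was Por, the electron donor of microsomal cytochromes P450, at 159 CPM fed and 738 CPM at 8 h (2.21), and the lower ones were Cyp2u1 (-2.16) and Cyp2a5 (-1.34), a gene with a close paralog. In cells of 5000 to 15000 UMIs 2 of the list were higher and 1 lower, with a median of 0.16. Of 20 conjugation genes Gstp1 alone was higher and 5 were lower, 4 of them UDP-glycosyltransferases, from Ugt2b35 (-1.54) to Ugt2b34 (-1.06). Of 12 major urinary protein genes, near-identical genes whose reads may be split, 7 were lower, but 3 under TMM scaling, 3 in cells of 5000 to 15000 UMIs and 1 in barcodes of under 1% mitochondrial UMIs. Of 28 coagulation and complement genes 3 were lower, Mbl2 (-1.52), F13b (-1.36) and Kng1 (-1.29), and of 14 apolipoprotein and particle assembly genes 1, Apon (-1.05). These shares, 10.7% and 7.14%, did not exceed the 11.8% background. In iron handling, Tfrc, the transferrin receptor, was at 68.5 and 13.6 CPM (-2.34) and Hamp2, a hepcidin paralog, at 73.2 and 19.2 CPM (-1.93).

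**Figure D3:**
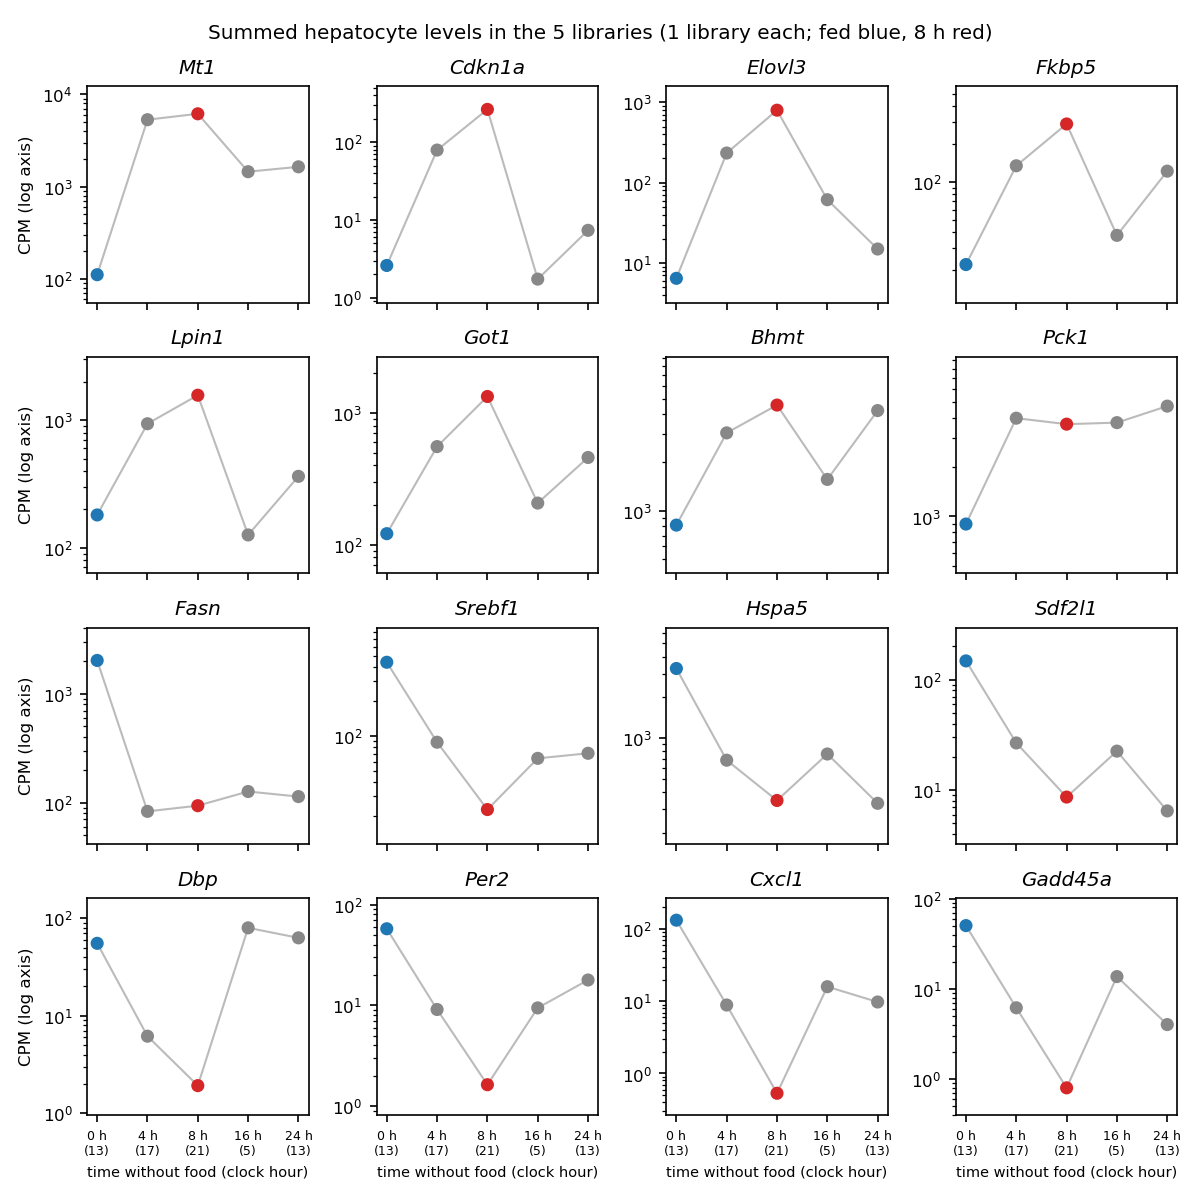
Summed hepatocyte CPM (log axis, scale differing between panels) of 16 genes in the 5 libraries by hours without food, with the clock hour in parentheses, 1 library per point, fed in blue and 8 h in red. Cdkn1a, Elovl3, Lpin1 and Got1 peak at 8 h, Pck1 stays between 3662 and 4719 CPM in the fasted libraries, Fasn stays between 83.1 and 127 CPM, and Dbp is back at 62.9 CPM at 24 h.

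The other fasted libraries place these differences in time, as descriptions against a fed library common to all. Lpin1 was at 937 CPM at 4 h, 1568 CPM at 8 h, 126 CPM at 16 h and 362 CPM at 24 h, against 181 CPM fed. Got1 followed with 555, 1331, 207 and 459 CPM, against 121 CPM fed. Pck1 was at 3983, 3662, 3741 and 4719 CPM, all above its fed level of 899 CPM, and Fasn at 83.1, 93.8, 127 and 114 CPM, all far below its fed level of 2021 CPM. Lpin1, Got1, Cdkn1a and Elovl3 were highest at 8 h. By list, gluconeogenesis summed to 4648 CPM fed and 7876, 9144, 7670 and 9593 CPM at 4, 8, 16 and 24 h. Lipogenesis summed to 11303 CPM fed and 3558, 2601, 2152 and 2261 CPM. Amino acid catabolism summed to 9488 CPM fed and 12890, 15994, 10274 and 11820 CPM, highest at 8 h.

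Hepatocytes differ along the lobule, from the portal end, where blood enters, to the central vein. Each library's cells were ranked on a score of 12 portal and 16 central landmark genes and cut into 3 equal bins, which are ranges of a score and not cell types. Of fed cells 18.4% and of 8 h cells 22.4% lay within 0.1 SD of a limit. The central bin of fed cells was shallow, with a median of 2887 UMIs against 6460 in the portal bin, and 12250 against 15923 at 8 h. The genes were called on these same cells pooled, so that agreement in sign between bins is largely set by that choice and is given as a description. Of 239 higher genes outside the landmarks, 187 (78.2%) were at least 2-fold higher in every bin, and of 355 lower genes 296 (83.4%) were at least 2-fold lower in every bin, with the same sign in all 3 bins for each of the 239 and 355. Unfolded protein response genes had medians of -2.04, -2.02 and -2.07 in the portal, middle and central bins.

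In 4 higher and 5 lower genes the bins differed by more than 1 log2 unit. Pck1, whose level is portal in fed liver, was at 1221, 847 and 486 CPM from portal to central in fed cells and at 3908, 3610 and 3419 CPM at 8 h. Its ratio was thus 1.68 (1.65 to 1.70) in the portal, 2.09 in the middle and 2.81 (2.77 to 2.86) in the central bin. G6pc leaned the same way without reaching that difference, with 0.71, 0.82 and 1.45, and so did Igfbp1 with 3.39, 3.43 and 4.19. Cyp8b1 had ratios of 0.65, 0.96 and 1.68. Elovl3 went the other way, with ratios of 7.70, 7.49 and 6.09, on fed levels of 3.34, 4.14 and 14.6 CPM. Gstp1 had ratios of 3.34, 3.21 and 1.38. Among lower genes, Cyp2a5 had ratios of -3.21, -2.67 and -1.46 and Per2 of -5.73, -5.16 and -4.52, while Cxcl1 rested on few UMIs in each bin at 8 h. Tmsb4x had ratios of -2.13, -2.30 and -4.15, with 204 CPM in the central bin of fed cells against 7.25 CPM in the portal one, and AY036118, a noncoding transcript, had 190 CPM there against 17.4 CPM. The depth gap of the fed central bin lies beside all of these and its part was not tested.

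**Figure D4:**
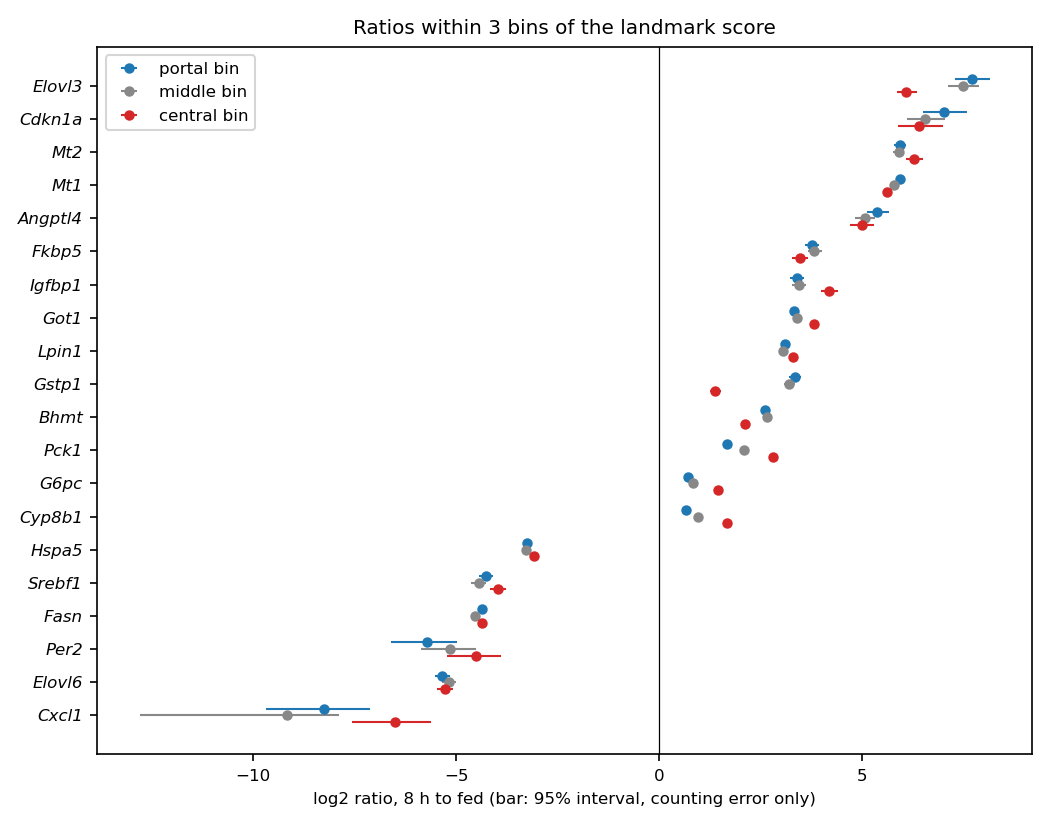
The log2 ratio of 8 h to fed (x axis) of 20 genes within the portal, middle and central bins of the landmark score, with bars for the 95% counting intervals. Most genes have their 3 points close together, while Pck1 runs from 1.68 to 2.81 toward the central bin and Elovl3 from 7.70 to 6.09.

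To see how the levels were spread over cells, each hepatocyte was thinned to 1000 non-mitochondrial UMIs, which left out 25 cells of the 8 h library. Mt1 had a median of 0 UMIs per fed cell and 5 per 8 h cell, with 0 at the 90th percentile of fed cells and 1 at the 10th percentile of 8 h cells. Bhmt had medians of 1 and 4, and Pck1 of 0 and 3. Fasn had a median of 2 in fed cells and 0 in 8 h cells, where the 90th percentile was also 0. For these 4 genes the difference was one of most cells, and the 10th percentile at 8 h lay above the fed 90th for Mt1 alone. Mt2, Lpin1, Got1 and Elovl3 had medians of 0 and 1, and Elovl6, Pdia4 and Fbp1 of 1 and 0, which are too close to 1 UMI to describe the spread.

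**Figure D5:**
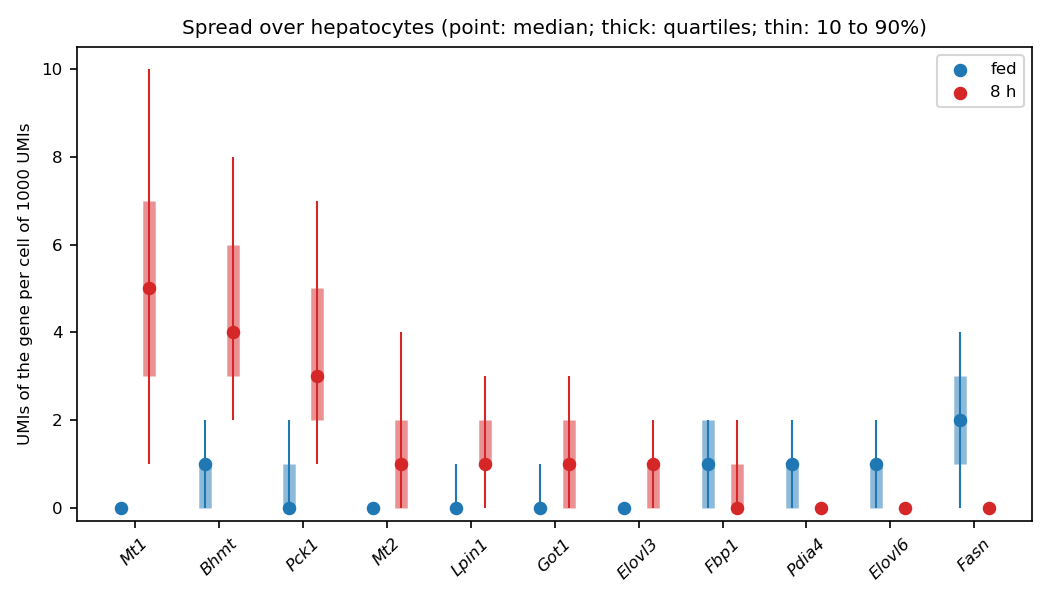
UMIs of 11 genes per hepatocyte after thinning to 1000 UMIs (y axis), for 7826 fed cells in blue and 2691 cells at 8 h in red, with points at the median, thick bars between the quartiles and thin bars from the 10th to the 90th percentile. Mt1 has medians of 0 and 5 with no overlap of the thin bars, and Fasn has medians of 2 and 0.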

How the data were processed

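Per the labels, hepatocytes were loaded on a 10x Genomics Chromium controller with the 3' v3 chemistry. The deposited matrix, made by the authors with Cell Ranger 6.0.1 on mm10 per the submitters' processing notes, holds UMI counts of 32285 genes in 50000 barcodes, 10000 per library; annotation version, strand and intron settings are not given in the sources used here. UMIs of the hepatocytes were summed per library and scaled to CPM of non-mitochondrial UMIs. Log2 ratios carry exact conditional binomial 95% intervals, which cover counting error only. No count test was run, since each condition is 1 library. Named genes are the 20 highest and 20 lowest ratios at 50 CPM or more in either library (leaving out erythroid, Gm and Rik genes), the highest, lowest and called members of each list, and 15 metabolic, hormone and stress genes fixed by name; a few of these are not reported here. The comparison, its lists (47) and tests were chosen with earlier results of these data known. Coordinates are GENCODE M21, which matched 99.6% of gene identifiers. Doublets were not called and remain. TMM factors came from edgeR 4.0.16, and all else from scipy 1.17.1 and pandas 2.3.3, with numpy 2.4.6, in python 3.11.15. The ratio, interval and call were tested on simulated data with 200 changed genes.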

Additional observations from a re-analysis of the deposited data

How the results depend on the processing

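The 2 counts and the ratios were recomputed under 15 alternatives listed at the outset and 2 chosen after seeing the data (erythroid markers left aside in the marker filter, and cells of 5000 to 15000 UMIs in both libraries). The 240 higher genes became 370 with TMM scaling, 420 with a minimum of 10 CPM and 139 with one of 200 CPM. The 357 lower genes became 830 at 10 CPM, 135 at 200 CPM and 679 in barcodes of under 1% mitochondrial UMIs, where the median gene moved by -0.43 and 190 were higher. The 2 changes of minimum alter the genes tested, and for the others the cause was not tested. The other alternatives left both counts within 1.5 times. In the 15 alternatives that keep the minimum, 86 of the 240 higher and 220 of the 357 lower genes stayed at 2-fold or more, and 214 and 346 kept their sign. These 15 include the barcodes of under 1% mitochondrial UMIs, which are not among the hepatocytes, so the counts do not describe hepatocytes alone. Of 42 called genes among the 49 named by extreme ratio or by name, 41 kept their direction and 40 stayed at 2-fold. The exception in direction was Tmsb4x, at 3.01 in barcodes of under 1% mitochondrial UMIs. In those barcodes, where the median of all genes was -0.49, the medians of gluconeogenesis (-0.56), amino acid catabolism (-0.41), the urea cycle (-0.22), methionine and one-carbon metabolism (-0.21) and fatty acid oxidation (-0.91) were below 0, against above 0 in the hepatocytes. No paired analysis was possible because each time point is 1 library. Depth limits Cxcl1, Gadd45a, Per2 and Dbp most, with 18, 27, 55 and 65 UMIs at 8 h.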

Other observations

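Mitochondrially encoded transcripts, which were left out of the denominator, made up 12.2% of hepatocyte UMIs in the fed library and 9.78% at 8 h. Relative to non-mitochondrial UMIs 12 of the 13 genes had log2 ratios below 0, and the exception was mt-Co2 at 0.32. The lowest were mt-Nd6, the only protein-coding gene of the light strand, at -3.70, mt-Atp8 at -2.80 and mt-Nd2 at -1.60. The other 9 lay between -0.87 for mt-Nd5 and -0.02 for mt-Atp6. Serpina1e, a gene of the alpha-1-antitrypsin family whose near-identical copies may share reads, made up 0.411% of fed and 1.05% of 8 h non-mitochondrial UMIs, a log2 ratio of 1.36, while Alb, albumin, made up 7.64% and 5.03%.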
